A study of Papio hamadryas with 17 samples.

Results

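Collagens, laminins and their partner proteins form the scaffold that holds a tissue together. Of the 13850 genes in the table of female libraries, 52 belonged to this set: every gene named COL, a number, A and a number, every laminin chain (LAMA, LAMB and LAMC genes), and 9 of 10 genes listed singly (FN1, FBN1, NID1, NID2, AGRN, SPARC, DCN, LUM and BGN; HSPG2 was not among the transcripts analysed here). The set held 8 fibrillar collagens, 6 chains of collagen IV, 12 laminin chains, 5 other basement membrane genes, 15 other collagens and 6 glycoproteins and proteoglycans. The table of male libraries was analysed here in part, and 41 of the 52 genes, among 9818 genes in all, had transcripts in both tables. The other 11 (COL18A1, COL23A1, LAMA2, LAMA3, LAMA4, LAMB2, LAMB3, LAMC1, LUM, NID1 and SPARC) were described in females alone.

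Messenger RNA was sequenced from biopsies of the kidney cortex of baboons (Papio hamadryas), 8 females and 9 males, with 1 library per animal. All animals were fed a low-salt chow for life and had no further treatment, and biopsies were taken under ultrasound guidance with ketamine and isoflurane anaesthesia. Labelled ages, given with no unit, were 15 to 19 for the females and 6 to 13 for the males. By the sample names in the labels, the females had a prefix of their own and the males fell into 2 runs of numbers, called series A (5 libraries) and series B (4 libraries) here, so that sex, age and name series cannot be told apart. The study asked how gene networks differ between the sexes.

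Values are called signal: the deposited value minus its offset of 1, summed over a gene's transcripts. In each library 57.4% to 73.8% of the low values were whole multiples of 1 step shared between genes, so signal was taken to follow read number with no correction for gene length. Levels are therefore compared between libraries, not between genes. A step was worth 0.0532 to 0.0946 in 13 libraries and 0.237 in female 1, 0.315 in female 2, 0.318 in female 6 and 0.293 in male 6, the 4 shallowest. Not every library looked like kidney cortex. Female 1, female 2 and male 6 had summed signals of 79502, 120179 and 59799 for the skeletal muscle genes ACTA1, CKM and DES, against 5.87 to 25.8 in the other 14. UMOD, the main protein of the thick ascending limb, was at 20.8 and 12.3 in female 1 and female 2, at 939 in male 6 and between 1669 and 11030 in the others, and the podocyte gene NPHS1, analysed in females alone, was listed at 0 in female 1, female 2 and female 3. Of the 6 podocyte markers listed, SYNPO went the other way. It was at 1556 and 1906 in female 1 and female 2 against 64.2 to 133 in the other females. With it the sum over the 6 was 1592 and 1946, against 116 to 953. Female 1, female 2 and male 6, called the 3 muscle-rich libraries, were set apart by measured values and are no group of the study. Each is therefore given by its own value, with no test.

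Fibrillar collagens assemble into the ropes of connective tissue and are made mainly by fibroblasts. Basement membranes are thin sheets under epithelia and endothelia, built from a network of collagen IV and a network of laminin that nidogens and heparan sulphate proteoglycans join. In the glomerulus the mature sheet contains the α3, α4 and α5 chains of collagen IV and laminin α5, β2 and γ1, whereas most other basement membranes carry the α1 and α2 chains of collagen IV, and that around muscle fibres carries laminin α2.

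The balance between the 2 kinds of matrix separated the 3 muscle-rich libraries from the rest. Summed over 8 fibrillar genes, signal was 1243 in female 1, 919 in female 2 and 3232 in male 6, and 84.0 to 310 with a median of 152 in the other 14. Over the 15 basement membrane genes held in both tables, the same libraries had 498, 425 and 733, and the others 525 to 978 with a median of 781. Fibrillar signal was thus above every other library in all 3, while basement membrane signal was below the rest in both females and within their range in male 6. The ratio of the sums, which does not depend on how libraries are scaled, was 2.50, 2.16 and 4.41 in the 3 libraries and 0.133 to 0.398, with a median of 0.190, in the 14. The lowest of the 3 was 5.43 times the highest of the 14. The sums cover all 8 fibrillar genes but only 15 of the 23 basement membrane genes. In bulk tissue, fewer cells of a type and less RNA per cell cannot be told apart.

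**Figure D1:**
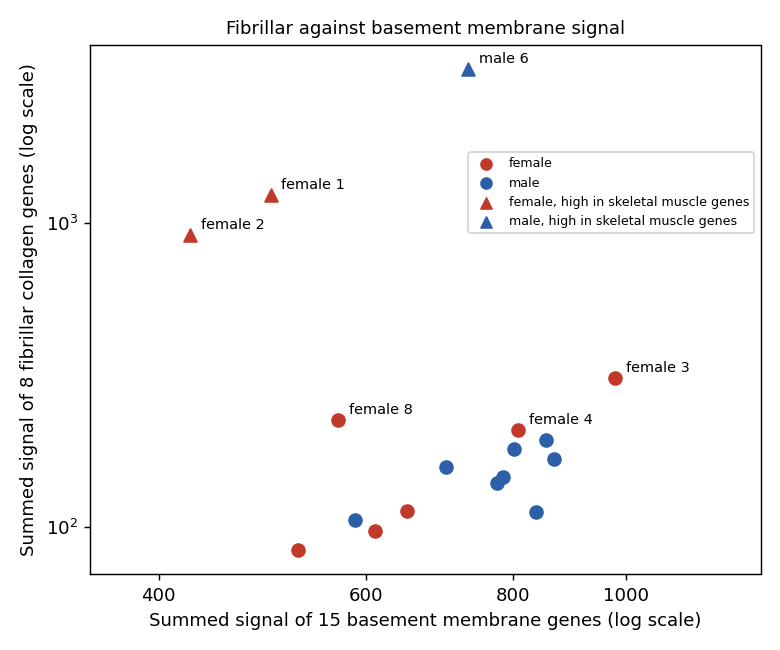
Summed signal of 8 fibrillar collagen genes (vertical, log scale) against that of 15 basement membrane genes (horizontal, log scale), 1 point per library, triangles for the 3 libraries high in skeletal muscle genes. Female 1, female 2 and male 6 sit at fibrillar sums of 919 to 3232, above the 84.0 to 310 of the other 14.

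Gene by gene, 12 of the 41 genes were higher in all 3 muscle-rich libraries than in every one of the other 14, where 15.7% of all genes in both tables were. Another 9 of 41 were lower in all 3 than in all 14, against 15.4% of all genes. Among genes held in both tables, the classes differed in direction. Of the fibrillar genes 6 of 8 were above and 0 below. Of the basement membrane genes 1 of 15 was above and 7 below, 4 of them among the 6 laminin chains. This contrast covers all 8 fibrillar genes but only 15 of 23 basement membrane genes. Of those analysed in females alone, LAMA2, LAMA4, LAMB3, LAMC1 and NID1 were above the other females in female 1 and female 2. COL18A1 was below, and LAMA3 and LAMB2 overlapped. Relative to the median of the 14, the median fibrillar gene was at 10.2, 6.47 and 19.5 in female 1, female 2 and male 6. The median collagen IV gene was at 0.392, 0.425 and 0.685, beside 0.909, 0.818 and 0.739 for all genes. The median of the 6 laminin chains held in both tables was at 0.107, 0.124 and 0.328. It does not stand for all 12 chains. Relative to the median of the other 6 females, the laminin chains analysed in females alone were at 0.953 to 7.68 in female 1. In female 2 they were at 0.865 to 5.44. With each library scaled to the same median gene, 14 genes were above (21.5% of all genes) and 7 below (12.6%): COL4A1 and COL4A2 joined the genes above, and COL4A4 and COL9A2 left those below.

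**Figure D2:**
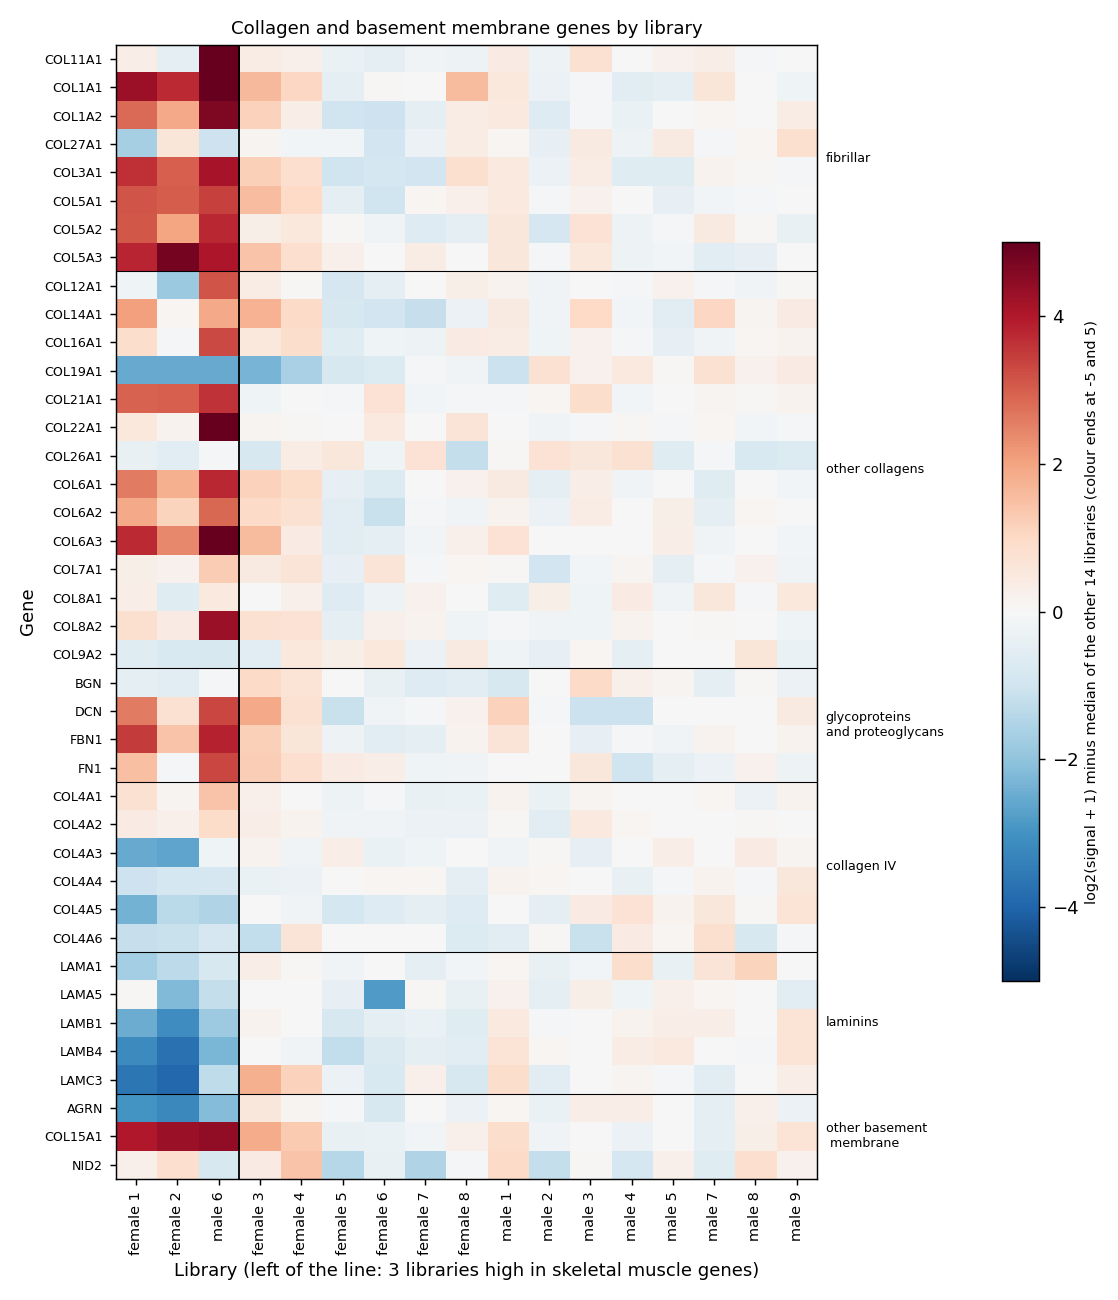
Signal of 40 of the 41 genes held in both tables (rows, by class) in each of the 17 libraries (columns), as log2(signal + 1) minus the median of the 14 libraries not high in skeletal muscle genes. The 3 columns left of the line are red for 6 of 8 fibrillar genes and blue for 4 laminin chains, the genes whose values there lie outside the range of the other 14.

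Type I collagen is the heterotrimer of COL1A1 and COL1A2 chains that makes up most of the collagen of bone and tendon. COL1A1 (gene27282, on the minus strand of NC_018167.2 from 31824672 to 31842290) reached 388 in female 1, 264 in female 2 and 1245 in male 6, and the other 14 ran from 12.6 to 60.9 with a median of 19.1. That is 20.4, 13.9 and 65.3 times the median. COL1A2 (gene6485, on the minus strand of NC_018154.2 from 108104571 to 108141641) was at 348, 182 and 1250 in the same libraries and at 22.9 to 109, median 48.1, in the others. For both chains male 6 was highest, and the 3 did not overlap the 14. COL3A1, the homotrimeric collagen of pliable tissues and vessel walls, lay at 298, 189 and 417, where no other library exceeded 52.9.

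Collagen V chains sit inside type I fibrils and limit their diameter. COL5A1 had signals of 95.1, 86.8 and 115 in female 1, female 2 and male 6 and 4.45 to 30.5 in the others. COL5A3, the least widespread of these chains, ranked differently: female 2 was highest at 125, then male 6 at 73.4 and female 1 at 62.0, and the other 14 ran from 2.11 to 11.2. COL5A2 was at 40.2, 17.5 and 64.0 against 1.64 to 6.81. COL27A1, a fibrillar collagen of developing cartilage, did not follow the class. Its signal was 10.9 in female 1 and 17.2 in male 6, below the 18.1 to 64.4 of the others, but 55.2 in female 2, inside that range.

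Collagen VI forms beaded filaments around cells and is abundant in the sheath of muscle fibres. COL6A1 was at 312 in female 1, 180 in female 2 and 719 in male 6, and between 31.2 and 116 elsewhere. COL6A2 was at 359, 209 and 720 against 44.5 to 190. COL6A3, the longest chain, was at 118, 46.0 and 300.1 against 5.22 to 25.9. Its ratio to COL6A1 was 0.377, 0.256 and 0.417 in the 3 libraries and 0.112 to 0.224 in the 14. Other genes above all 14 were FBN1, the fibrillin of elastic microfibrils (75.3, 17.0 and 96.0 against 3.50 to 14.3), and COL15A1 (72.2, 89.0 and 96.3 against 2.20 to 15.5). COL15A1, which bridges the basement membrane to fibrils around muscle fibres and capillaries, was the only basement membrane gene of the 15 above in all 3 on the deposited scale. DCN, a proteoglycan that coats type I fibrils, was at 448 and 747 in female 1 and male 6 but at 124 in female 2, within the 32.7 to 274 of the others.

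**Figure D3:**
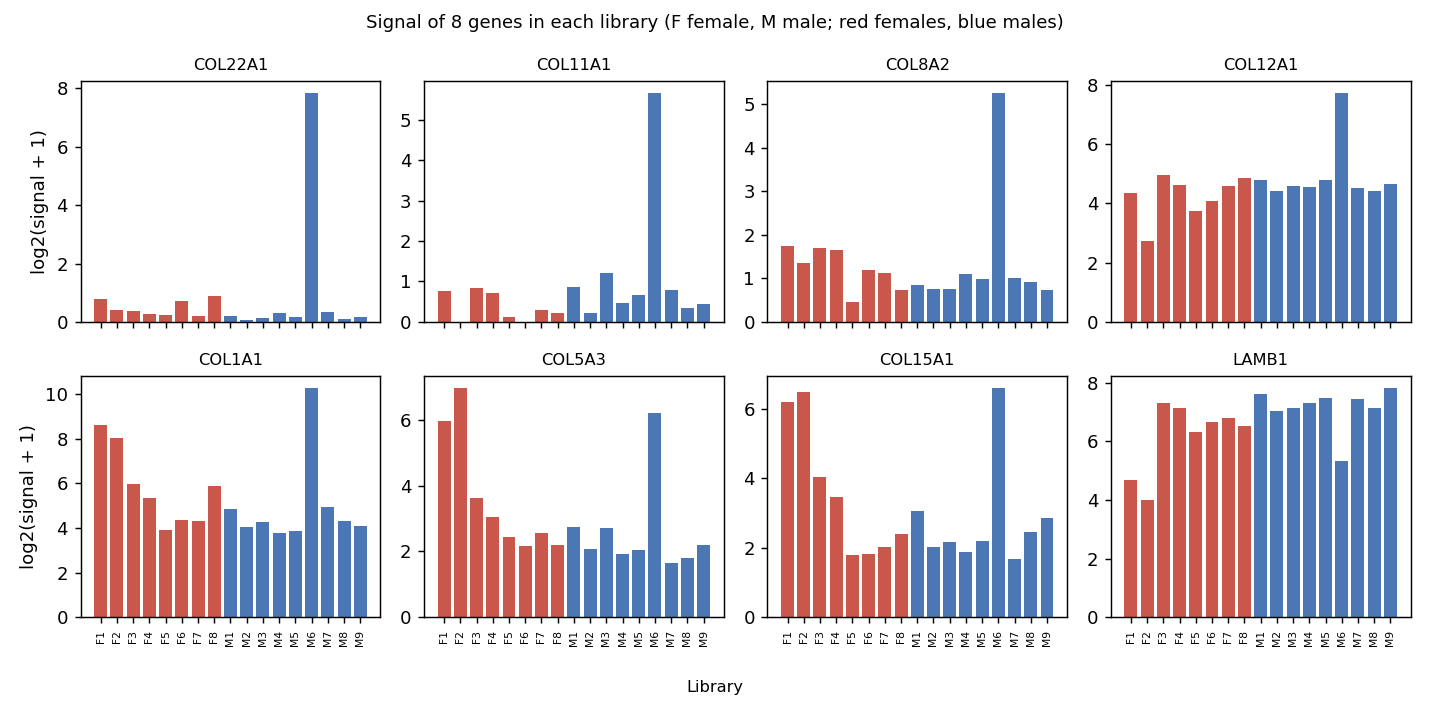
Signal of 8 genes in each of the 17 libraries as log2(signal + 1), with bars from 0, F for females in red and M for males in blue. COL22A1, COL11A1, COL8A2 and COL12A1 stand out in male 6 alone, COL1A1, COL5A3 and COL15A1 are high in female 1, female 2 and male 6, and LAMB1 is lowest in the same 3.

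Male 6 differed from both muscle-rich females in a further group of collagens. COL22A1, a collagen of the junction between muscle and tendon, had a signal of 231 in male 6, 0.710 in female 1, 0.316 in female 2 and 0.0531 to 0.829 in the other 14. COL11A1, a fibrillar collagen of cartilage, was at 49.9 in male 6, 0.710 in female 1, 0 in female 2 and at most 1.32 elsewhere. COL8A2, a short-chain collagen known from the cornea, was at 37.4 in male 6 and at 2.36 or less in all others. These 3 of 41 genes exceeded 10 times the highest other library in male 6, where 10 of 9818 genes (0.102%) did. They were picked out after their values were seen.

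COL12A1, a collagen that decorates fibrils in tendon and ligament, showed a like profile. Its signal was 213 in male 6, 19.6 in female 1, 5.68 in female 2 and 12.4 to 30.2 in the others. The transcript that carried at least 86.3% of its signal in each of the 14 libraries carried 62.3% in male 6, and the remainder came from its other 2 transcripts with 24.2% and 13.6%. Of collagen partners outside the set, looked up after these values were seen, FMOD, a fibril proteoglycan of tendon, had 667 in male 6 and at most 6.10 in any other library. COMP, a cartilage and tendon protein that binds fibrils, had 353 in male 6 and at most 0.394 elsewhere. CILP, a cartilage matrix protein, was at 272 in male 6 but also at 101 and 47.6 in female 1 and female 2, above the other 14, whose highest was 4.18. Also looked up were ASPN, at 37.3 in male 6 and at most 4.73 elsewhere, and CHAD, at 169 and at most 36.6. THBS4 and TNMD were analysed in females alone. THBS4 was at 63.7 in female 1 and 9.47 in female 2 against at most 7.05 in the other females, and TNMD at 0.933 or less in all. Of the fibroblast and mural cell markers, 3 of 8 were held in both tables (ACTA2, MYH11 and CSPG4), and their summed signal was 252 in female 1, 314 in female 2 and 273 in male 6, inside the 21.4 to 351 of the others. CSPG4 alone, a proteoglycan of pericytes, was at 36.9, 22.7 and 101, above the 2.20 to 13.6 of the other 14. Their part in these values was not tested.

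Of the 6 laminin chains held in both tables, 4 were lower in all 3 muscle-rich libraries than in the other 14, and 2 overlapped. The shared transcript of LAMA5 was at 14.5, 2.22 and 5.49 in female 1, female 2 and male 6, inside the 1.09 to 17.1 of the others. LAMB1 (gene6675, on the minus strand of NC_018154.2 from 130735851 to 130824407), the β1 chain of most laminins, was at 24.4 in female 1, 15.1 in female 2 and 39.0 in male 6, and 79.6 to 226 with a median of 139 in the others. LAMC3, the γ3 chain, was at 0.237, 0 and 5.28 against 7.71 to 51.1. LAMA1, an α chain of embryonic and some tubular basement membranes, was at 0, 0.316 and 0.880 against 1.34 to 6.01. The values of LAMA1 in the 3 libraries corresponded to 3 low-value steps or fewer, so they are near the limit of these shallow libraries. LAMB4 lies 23846 bases from LAMB1 in the same direction and had 0.473, 0 and 1.76 against 4.73 to 20.6. Its ratio to LAMB1 was 0.0595 to 0.102 in the 14 libraries and lower in the 3, at 0.0194, 0 and 0.0451. How reads were divided between the neighbouring genes is not given in the sources used here.

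AGRN, the heparan sulphate proteoglycan agrin of glomerular and synaptic basement membranes, was likewise below in all 3, with 32.4, 27.3 and 57.8 against 151 to 387. COL19A1, a minor collagen of basement membrane zones, was listed at 0 in female 1, female 2 and male 6. It ran from 0.169 to 8.87 in the others, and 3 low-value steps in the 3 libraries would be worth 0.710, 0.946 and 0.880. The lowest of the 14 would therefore not have been detectable at the depth of those 3.

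In collagen IV the chains split. COL4A1 and COL4A2, head to head and 118 bases apart (NC_018168.2, 87662520 to 88013798 together), code for the chains of the general network. COL4A1 had a signal of 125 in female 1, 79.8 in female 2 and 196 in male 6, and 55.7 to 86.0 in the others. COL4A2 was at 209, 188 and 299.7 against 106 to 221. As deposited, male 6 was above all others for both genes, female 1 for COL4A1 alone, and female 2 lay inside the range for both. The chains of the glomerular network were lower in both muscle-rich females. COL4A3, whose loss causes Alport syndrome, was at 2.93 and 2.56 in female 1 and female 2 and at 15.8 to 28.9 in the 14, but at 18.2 in male 6. COL4A5, its X-linked partner, was at 1.66, 4.42 and 3.82 against 6.43 to 21.2, below in all 3.

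The ratio of COL4A1 to COL4A3 within a library, used as a measure of the split, was 42.8 in female 1, 31.2 in female 2, 10.7 in male 6 and 2.06 to 5.15 in the other 14. It rests on 6 of the 7 transcripts of COL4A3. Over all 7, analysed in females alone, COL4A3 was at 5.17 in female 1, 3.09 in female 2 and 20.8 to 31.4 in the other females. With those values the ratio would be lower in each female, and that of female 1 would no longer exceed that of female 2. COL4A4 and COL4A3 are head to head with gene spans that overlap by 152 bases, and COL4A6 and COL4A5 are 276 bases apart in the same arrangement. COL4A4 was at 4.50, 5.05 and 5.28 in female 1, female 2 and male 6, below the 7.13 to 15.6 of the others on the deposited scale.

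The remaining genes held in both tables mostly overlapped between the 3 libraries and the 14. COL21A1, a collagen of vessel walls with low signal, was above in all 3, at 8.05, 8.20 and 13.2 in female 1, female 2 and male 6 against 0 to 1.15. COL9A2, a cartilage collagen, was below on the deposited scale, at 0.473, 0.316 and 0.293 against 0.506 to 2.46, where the values of the 3 libraries are worth 2 steps or fewer. FN1 was at 416 in male 6 and 118 in female 1, above the 20.0 to 97.4 of the others, and inside that range in female 2. Male 6 alone was above the range for COL16A1, a collagen that links fibrils (109 against 6.46 to 20.0), and for COL7A1, the anchoring fibril collagen (7.04 against 0.691 to 4.24). COL14A1 was above the 1.12 to 14.8 of the others in female 1 (18.5) and male 6. BGN, COL26A1, COL8A1 and the shared transcripts of COL4A6 and NID2 lay inside the range of the 14 in all 3. Over all transcripts, which were analysed in females alone, NID2 was at 22.2 and 21.5 in female 1 and female 2, above the 2.16 to 15.3 of the other 6, and COL4A6 was at 2.12 and 2.20, below their 5.05 to 8.42.

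The 11 genes held in the female table alone add the chains that pair with those above. Signal in both female 1 and female 2 was above the other 6 females for 6 of the 11 genes, where 44.4% of all genes with signal in that table were. It was below for 2, where 18.7% were. Those shares include genes held in both tables, and both counts are near them. Neither count is therefore a result about these genes. The genes above were LAMA2, LAMA4, LAMB3, LAMC1, NID1 and SPARC. LAMC1, the γ1 chain shared by most laminins, was at 91.3 in female 1 and 54.3 in female 2, and at 12.4 to 21.4 with a median of 17.2 in the others. NID1, a nidogen that ties laminin to collagen IV, was at 38.3 and 26.2 against 10.4 to 16.3. SPARC, a collagen-binding protein of basement membranes and bone, was at 376 and 253 against 109 to 204.

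LAMA2 and LAMA4, named after their values were seen, code for the α chains of muscle fibre and of vessel basement membranes. LAMA2 was at 21.2 and 10.2 in female 1 and female 2 against 5.12 to 7.53, and LAMA4 at 37.9 and 26.8 against 1.27 to 16.5. COL18A1, the collagen from which endostatin is cut, was the abundant gene below: 37.6 and 42.3 against 121 to 406 with a median of 185. LAMB2, the β2 chain of glomerular and synaptic laminin, did not differ in this way, with 151 and 137 inside the 129 to 205 of the others. LAMA5 had only 1 of its 2 transcripts in both tables. Over both transcripts it was at 29.1 and 42.9 in female 1 and female 2 and at 80.3 to 125 in the others.

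**Figure D4:**
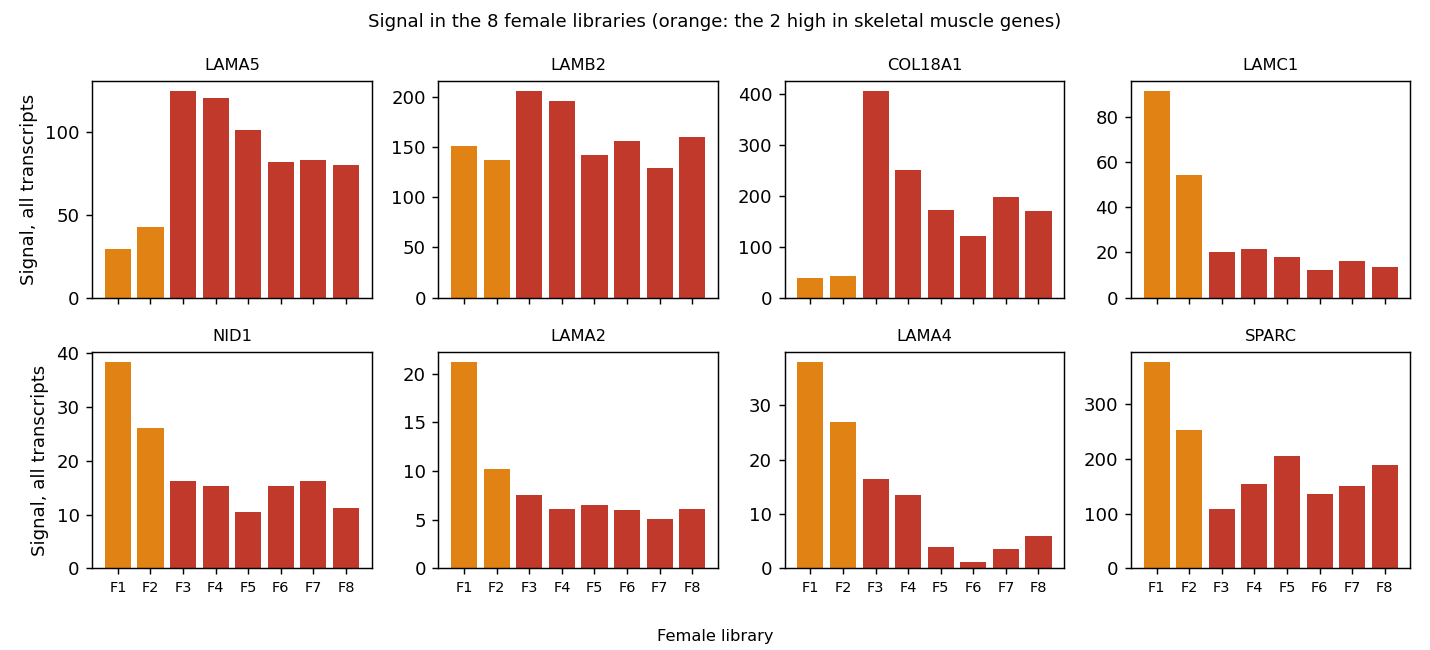
Signal of 8 genes over all transcripts of the female table in the 8 female libraries, bars from 0, orange for female 1 and female 2. LAMC1, NID1, LAMA2, LAMA4 and SPARC are highest in the orange bars, LAMA5 and COL18A1 are lowest there, and LAMB2 lies inside the range of the other 6.

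Among the 6 other females, female 3 and female 4 had more signal than the rest for many of these genes, though not for the fibrillar sum. Both were above the remaining 4 females for 26 of the 41 genes, where 28% of all genes were, a comparison made after the values were seen. DCN was at 274 and 123 in these libraries and at 32.7 to 84.8 in the other 4. FN1, the fibronectin that cells assemble before collagen, was at 97.4 and 73.5 against 34.8 to 54.8, and BGN, the biglycan of fibril surfaces, at 101 and 84.0 against 32.8 to 51.3. COL6A2 was at 190 and 165 against 44.5 to 90.1, and AGRN at 387 and 289 against 151 to 268. COL1A1 did not separate them, because female 8 with 58.4 lay between female 3 with 60.9 and female 4 with 39.8. Female 8 also lay between them for COL1A2, at 62.1 against 109 and 60.0, and for the fibrillar sum, at 226 against 310 and 209. Its ratio of fibrillar to basement membrane signal, 0.398, was the highest of the 14 libraries. Other cell markers moved as well. The summed signal of 5 thick limb and collecting duct genes was 11756 and 7847 in female 3 and female 4 against 1805 to 7622 in the other 4, that of 3 fibroblast and mural genes was 107 and 351 against 42.3 to 93.6, and that of PODXL and PTPRO, the 2 podocyte genes held in both tables, was 50.5 and 147 against 241 to 439. The summed signal of 7 proximal tubule genes was 813 and 1363 against 952 to 2341. In female 3 AQP1 alone was at 764, SLC5A2 was listed at 0 and SLC22A6 was at 0.394. SLC22A6 was at 62.4 in female 4 and at 72.3 to 197 in the other 4. Female 3 was kept among the 14 libraries. The part of these markers in the matrix values was not tested.

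Sex was compared over all genes whose signal reached 1 in 8 or more libraries. Of the 41 genes 38 passed this filter, 3 (COL11A1, COL21A1 and COL22A1) did not, and 9414 genes were tested. With all 17 libraries, 0 of the 38 genes differed between females and males (limma, adjusted p under 0.05), where 13.6% of all genes did, 0.372% higher and 13.2% lower in females. At an unadjusted p under 0.05, 4 of the 38 passed, against 29.4% of all genes. The median log2 difference, female minus male, was -0.10 over the 38 genes and -0.28 over all genes. Mean COL19A1 signal was 1.85 ± 1.87 (SD, n = 8) for the females against 5.54 ± 2.98 (SD, n = 9) for the males, and the log2 difference was -1.26 (SE 0.48, limma adjusted p = 0.0873). COL4A5, on the X chromosome in mammals, was at 7.50 ± 3.45 and 14.7 ± 5.79 in the same order (log2 difference -0.90, SE 0.34, limma adjusted p = 0.0817).

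Without the 3 muscle-rich libraries 4 of the 38 genes were called, all lower in females, while 38.6% of all genes were called, 36.3% lower and 2.23% higher. LAMB4 had signals of 4.73 to 12.5 with a median of 8.34 in the 6 females and of 11.5 to 20.6 with a median of 14.6 in the 8 males, and fell by 0.80 on the log2 scale (SE 0.20, limma adjusted p = 0.00462). COL4A5 ran from 6.43 to 12.4 and from 8.82 to 21.2 (log2 difference -0.75, SE 0.20, limma adjusted p = 0.00659). LAMB1 ran from 79.6 to 158 and from 130 to 226 (-0.58, SE 0.17, limma adjusted p = 0.0143). COL19A1 ran from 0.169 to 4.57 and from 1.77 to 8.87 (-1.17, SE 0.35, limma adjusted p = 0.0151). The ranges of the sexes overlapped for each of these genes, and all 6 females lay below the median of the 8 males. Leaving out male 6 alone gave the same 4 genes. The summed signal of 7 proximal tubule genes also differed, at 813 to 2341 in these females and 1936 to 4189 in these males. Its part in the sex differences was not tested.

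These calls rest on the scale that the 2 tables share. Over the 14 libraries the median log2 difference of all genes was -0.35 as deposited and 0.03 once each library was scaled to the same median gene. On that scale 0 of the 4 genes passed and 8 others did, all higher in females, where 29.7% of all genes were called, 14.7% higher and 15% lower. They were COL1A1 (log2 difference 1.14, SE 0.29, limma adjusted p = 0.0102), FN1 (1.01, SE 0.25, limma adjusted p = 0.00841), COL5A3 (0.88, SE 0.23, limma adjusted p = 0.00959), COL6A1, COL7A1, COL16A1, COL4A1 and COL4A2. As deposited, COL1A1 ran from 13.8 to 60.9 with a median of 29.8 in the 6 females and from 12.6 to 29.5 with a median of 17.2 in the 8 males. Female 5, female 6 and female 7, at 13.8, 19.7 and 19.2, lay inside the male range, and female 3, female 4 and female 8 above it. Medians of FN1 were 53.4 and 37.1, and those of COL5A3 were 4.65 and 3.18. Relative to the median gene, LAMB1, LAMB4, COL4A5 and COL19A1 were at -0.12, -0.38, -0.33 and -0.81, and did not pass. With all 17 libraries on that scale 0 of the 38 genes passed, where 4% of all genes did. No setting tried gave a call for COL1A2 or COL3A1.

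**Figure D5:**
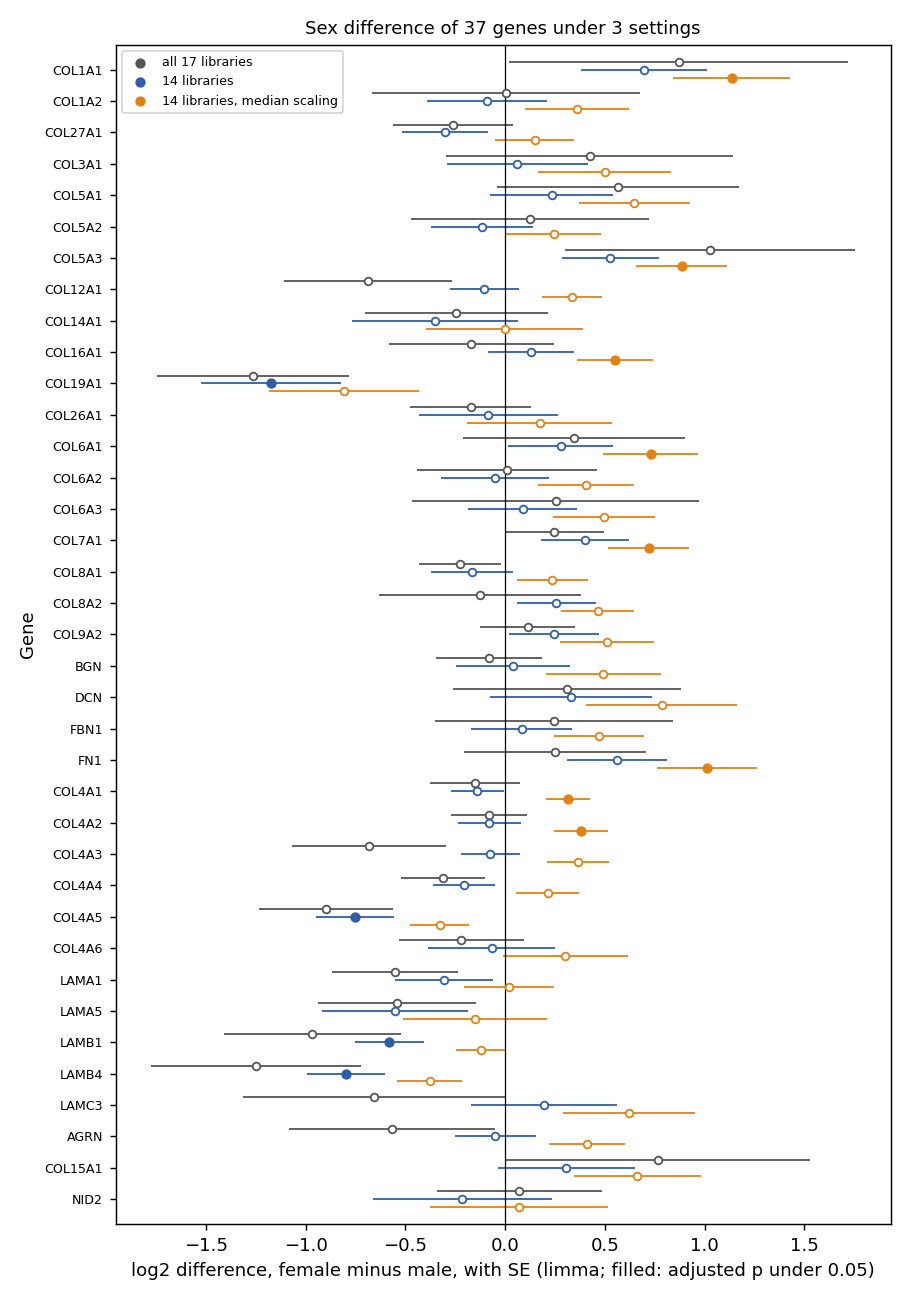
Log2 difference, female minus male, of log2(signal + 1) with its standard error for 37 of the 38 tested genes: all 17 libraries (grey), 14 libraries (blue), 14 libraries scaled to the same median gene (orange), filled where the limma adjusted p was under 0.05. The 4 filled blue points lie left of 0, the 8 filled orange points lie right of 0, and no grey point is filled.

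Between the male name series, B minus A, 0 of the 38 genes and 0% of the 9414 genes passed (limma, adjusted p under 0.05). At an unadjusted p under 0.05 the counts were 0 of 38 and 260 of 9414, or 2.76%. Series B had 4 libraries, male 6 among them.

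Chains that are built into the same molecule were compared across animals within each sex, without the muscle-rich libraries. With 7 pairs of genes this gave 12 correlations of log2(signal + 1), and their p-values (two-sided exact permutation tests) were adjusted over the 12. COL6A1 and COL6A2 correlated in females (r = 0.99, rho = 0.94, n = 6, adjusted p for r = 0.0150) and in males (r = 0.90, rho = 0.86, n = 8, adjusted p for r = 0.0150). COL4A1 and COL4A2 correlated in females (r = 0.91, rho = 0.94, n = 6, adjusted p for r = 0.0150 by exact permutation) and had lower values in males (r = 0.62, rho = 0.33, n = 8, adjusted p = 0.219 by exact permutation). The difference between the sexes was not tested. COL1A1 and COL1A2 had r = 0.93 and rho = 0.83 in females (n = 6, exact permutation, adjusted p for r = 0.0375) and r = 0.55 and rho = 0.67 in males (n = 8, exact permutation, adjusted p = 0.264).

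By rank, 0 of the 12 passed, with a lowest adjusted exact permutation p of 0.0667. Without the 2 libraries farthest from the median of the gene on the x axis, r was 0.97 and 0.95 for COL6A1 and COL6A2 in females and males, 0.73 for COL4A1 and COL4A2 in females and 0.90 for COL1A1 and COL1A2 in females. For COL4A3 and COL4A4, also head to head, no correlation was detected: r was -0.29 in the 6 females and -0.01 in the 8 males, with adjusted exact permutation p-values of 0.576 and 0.973. The third head-to-head pair, COL4A5 and COL4A6, was not tested. The r of LAMC1 with LAMB1 was 0.59 and with LAMB2 0.51 in females (n = 6), with adjusted exact permutation p-values of 0.333 and 0.367. Without the 2 farthest libraries these became -0.39 and -0.75, and that of COL4A3 and COL4A4 in females became -0.90, so none of these values is stable over 6 animals. COL1A2 and COL4A1, taken as a pair across classes, had r = 0.53 in females and 0.67 in males, with adjusted exact permutation p-values of 0.367 and 0.165. In males this r was above those of COL4A1 with COL4A2 (0.62) and COL1A1 with COL1A2 (0.55). Other gene pairs were not compared, so the values do not show that chains of the same molecule correlate more than other matrix genes.

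Enzymes and receptors that make, link, cut or bind matrix were read from a list of 57 genes, of which 50 were in the female table and 21 were tested for sex. With all libraries 1 of the 21 was called, against 13.6% of all genes: ITGA1, the α1 subunit of a collagen receptor (log2 difference -0.63, SE 0.15, limma adjusted p = 0.0141). Without the muscle-rich libraries 3 were lower in females (ITGA1, ITGB1 and SMAD2), where 36.3% of all genes were, and 1 was higher, where 2.23% were. The latter was ADAMTS14, which trims the ends of procollagen (log2 difference 0.71, SE 0.25, limma adjusted p = 0.0347). After scaling to the same median gene these 3 were not called, and 6 of 21 genes were called higher, where 14.7% of all genes were: ADAMTS14, COLGALT1, CRTAP, PPIB, DDR2 and CTGF. Of the 22 list genes held in both tables, 5 were above in all 3 muscle-rich libraries and 2 below, beside 15.7% and 15.4% of all genes, so neither count is a result about the list. Those above were ADAMTS2, a procollagen peptidase (10.7, 4.49 and 39.6 in female 1, female 2 and male 6 against 0.411 to 2.14), the collagen receptors ITGA11 and DDR2, the laminin receptor DAG1 (195, 265 and 266 against 47.7 to 109) and COLGALT1, which adds sugars to collagen.

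The authors' deposited tables give a co-expression module colour to each transcript, set separately in each sex. In the authors' deposited male table, 50 of the 80 shared transcripts of these genes (62.5%) were in the turquoise module, which held 28.51% of all transcripts analysed. The part of the male table analysed here ended within the turquoise module, so these shares rest on a module held in part. Fibrillar genes had 11 of 15 transcripts there and basement membrane genes 7 of 28, the latter also with 8 in black and 6 in purple. In the authors' deposited female table the 105 transcripts were spread over more modules, with 24 in blue (22.86%, against 41.71% of all transcripts), 19 in tan (18.1%, against 12.23%) and 17 in brown (16.19%, against 7.925%). Each deposited table holds all libraries of its sex, muscle-rich ones included, and which of them the modules were built from was not checked here.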

How the data were processed

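Stranded mRNA libraries were made from biopsies, and the submitters' processing notes name Partek as a tool. Per the file headers, the authors deposited a signal value for each transcript and library, in separate tables for the sexes, with a module colour. The sources used here give no aligner, scaling or genome build, and coordinates are those of the tables. The lowest deposited value was 1, which was subtracted as an offset. The male table was analysed here in part: 17119 complete transcripts, of which 17112 with a gene name were matched to the female table by transcript, and 2263 genes had further transcripts outside it. The mean over all 17 libraries had a lower edge at 2.0001, so both tables were treated as scaled together. Between 57.4% and 73.8% of low values were whole steps within a tolerance of 0.1 step. This was too few to recover reads, and no count test could be run. Relative depth, from the steps, ran from 0.167 to 1, and exact read numbers are unknown.

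Signal was summed per gene. limma 3.58.1 in R 4.3.3 was fitted with a mean-variance trend on log2(signal + 1), which understates changes of low genes, over 9414 genes with Benjamini-Hochberg adjustment, and was tested on simulated data. Correlations used Python 3.11.15 and scipy 1.17.1. Tried alternatives were pseudocounts of 0.5 and 0.1, filters, median and upper quartile scaling, age as a term, each male series alone, the most abundant transcript, and leaving out libraries. Members and lists were chosen with earlier results of these data known. By rule, genes named were up to 4 of highest mean per class, those called, and, among tested genes, the 4 with the largest and smallest ratios in the muscle-rich libraries. Some others are marked as chosen after their values were seen. Further genes given with values fall outside the rule without such a mark, among them COL5A2, FBN1, COL21A1, COL9A2, COL4A4, LAMA5 and COL14A1. The design called for a count test if the values were counts, and they were not. Sequences of these genes were not used here, and the values of 1 gene are not reported here.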

Additional observations from a re-analysis of the deposited data

Results flagged for a closer look

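Within each sex, the highest or lowest library was compared with its nearest neighbour for 95 sets of values, and 25 stood apart by Dixon's criterion, where chance alone would mark about 5% of sets. The sets share libraries, and male 6, which had been set apart for its skeletal muscle genes, was the library in 24 of the 25, so the number is a description and not a test. The cause was not tested. It was highest among the 9 males for COL1A1 (1245), COL1A2 (1250), COL3A1 (417), COL5A1 (115), COL5A2 (64.0), COL5A3 (73.4) and COL11A1 (49.9), and for the ratio of fibrillar to basement membrane signal (4.41, next highest male 0.226). The other collagens in which it was highest were COL6A1 (719), COL6A2 (720), COL6A3 (300.1), COL12A1 (213), COL16A1 (109), COL21A1 (13.2), COL22A1 (231), COL8A2 (37.4), COL15A1 (96.3) and COL4A1 (196), with DCN (747), FBN1 (96.0) and FN1 (416) beside them. Male 6 was lowest among the males for AGRN (57.8), LAMB1 (39.0) and LAMB4 (1.76). The remaining result was LAMA2 in female 1, at 21.2 with female 2 next at 10.2. No library of the females stood apart for the fibrillar genes, in which female 1 and female 2 were both high.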

How the results depend on the processing

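No gene of the set was called between the sexes with any other pseudocount, filter, scaling of all 17 libraries, age as a term or the most abundant transcript alone. The count of 0 became 4 without the muscle-rich libraries, 8 without them and with median scaling, 1 with males of series A alone without them (LAMB4) and 2 with males of series B alone without them (COL19A1 and COL4A5). Leaving out each library in turn gave 0 to 4, the 4 without male 6. Age as a term, which the ages of the sexes do not allow to be told apart from sex, turned the sign of COL19A1 (1.69), COL4A5 (0.63), LAMB1 (0.82), LAMB4 (0.92), COL1A1 (-3.22), COL5A3 (-3.02) and FN1 (-2.08), none of them called. With males of series B alone, COL1A1 was at -0.10 and FN1 at -0.26, not called. The cause of these changes was not tested. Of 12 correlations 4 passed, 2 with median scaling, and 1 to 5 without each library in turn (5 females have fewer permutations). The gap in the fibrillar ratio of 5.43 ran from 5.43 to 6.81 without each library in turn and was 4.98 with the most abundant transcript, 3.64 without COL1A1, COL1A2 and COL3A1, and 4.33 without AGRN and COL4A2. The count for the male series was 0 in every setting. No paired analysis was possible because each library came from a different animal. The shallow libraries limit values under about 1.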
